A study of Mus musculus with 8 samples.

Results

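The 10 genes described here carry, take up, store, export, oxidise or sense iron: Trf, Tfrc, Slc11a2, Fth1, Ftl1, Slc40a1, Heph, Cp, Aco1 and Ireb2. They were chosen by name for these functions out of 55573 gene IDs counted in 8 RNA-seq libraries, with their measured RNA levels in these same libraries already known. The selection therefore rests on the readout, the adjusted p-values below place each gene within the fit across all genes, and counts over the 10 genes support nothing beyond a description. All mice carried the PV-Cre driver and a tdTomato reporter on a C57BL/6 background. The wild-type groups (WT, labelled PV-Cre/tdTomato/Dnmt1 wild-type) had intact alleles of the DNA methyltransferase gene Dnmt1. The knockout groups (KO, labelled PV-Cre/tdTomato/Dnmt1 loxP2) had recombination sites around a pair of Dnmt1 exons, in a line that came from a B6;129Sv stock. Cortical cells were sorted at 6 or 18 months of age. Each of the 4 groups had 2 libraries, which the submitters describe as technical replicates of cells pooled from several mice, so p-values measure the spread between libraries and not between animals.

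Iron travels in extracellular fluid bound to transferrin (Trf), enters cells with the transferrin receptor (Tfrc), leaves the endosome through Slc11a2, is stored in a shell built of ferritin heavy (Fth1) and light (Ftl1) chains, and leaves the cell through ferroportin (Slc40a1) with the help of the ferroxidases hephaestin (Heph) and ceruloplasmin (Cp). The iron regulatory proteins made from Aco1 and Ireb2 bind a hairpin in messenger RNA, the iron-responsive element, when iron is scarce. Bound in a 5′ UTR they block translation, and bound in the 3′ UTR of Tfrc they protect the transcript from decay, so that ferritin is controlled largely at translation, which RNA counts do not measure. In the brain, oligodendrocytes are the cells richest in iron and ferritin, and they make transferrin. Astrocytes are a known source of ceruloplasmin.

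The hairpins are shown because they are what links the receptor, the ferritins and the exporter to the regulators Aco1 and Ireb2. The search asked for a C, 5 bases, the loop CAGTGN and 5 bases that can pair with the first 5, with G-T pairs allowed, on the transcribed strand of annotated UTRs. Of the 10 genes, 3 held a match in the 5′ UTR and 1 in the 3′ UTR. Each run below is 29 bases of GENCODE transcript sequence, 5′ to 3′, with the loop in capitals.
Fth1 5′ UTR, chr19:9982732-9982760 (mm10, plus strand): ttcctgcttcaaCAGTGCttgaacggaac
Ftl1 5′ UTR, chr7:45459779-45459807 (minus strand): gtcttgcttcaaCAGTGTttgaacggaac
Slc40a1 5′ UTR, chr1:45925465-45925493 (minus strand): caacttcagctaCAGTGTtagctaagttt
Tfrc 3′ UTR, chr16:32631219-32631247 (plus strand): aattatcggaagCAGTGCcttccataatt
Tfrc 3′ UTR, chr16:32631598-32631626 (plus strand): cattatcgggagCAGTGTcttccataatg
Tfrc 3′ UTR, chr16:32631663-32631691 (plus strand): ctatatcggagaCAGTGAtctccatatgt
Tfrc 3′ UTR, chr16:32631710-32631738 (plus strand): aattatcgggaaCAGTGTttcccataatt

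The same search found a match in the 5′ UTR of 31 of 20661 coding genes (0.15%) and in the 3′ UTR of 144 of 21066 (0.684%). UTRs differ in length: the longest annotated 3′ UTR of Tfrc has 2458 bases against a median of 1090 over all genes, and the longest 5′ UTRs of Fth1, Ftl1 and Slc40a1 have 795, 253 and 319 bases against a median of 222. The second of the 4 Tfrc hairpins needs a G-T pair, and the other 6 runs pair by Watson-Crick pairs alone. No match was found in Trf, Slc11a2, Heph, Cp, Aco1 or Ireb2, which says only that these letters are not in their annotated UTRs. Among other iron genes, matches included one in the 5′ UTR of Alas2 and one in the 3′ UTR of Bola3. None was found in Epas1, Cdc14a, Cdc42bpa or Pfn2, whose transcripts are described to carry an iron-responsive element. The search thus misses described elements, and a gene without a match, such as Slc11a2, may still carry one.

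Library totals ranged from 6008175 to 13551218 counts, and all 10 genes were among the 18205 that passed the filter on low counts. Dnmt1 RNA was lower in KO at 6 months (75.2 and 77.2 counts per 1000000, CPM, against 97.9 and 103.6 CPM in WT; log2 fold change -0.40, SE 0.074, adjusted p in edgeR 1e-04) and did not pass the test at 18 months (-0.10, SE 0.069, adjusted p = 0.281). Pvalb, the gene that drives Cre, had 6 reads over all libraries and was not tested. Of 9 listed parvalbumin interneuron markers, the 7 tested ones summed to 139 to 186 CPM. The 16 oligodendrocyte markers summed to 15367 to 45001 CPM and the 15 astrocyte markers to 5833 to 17545 CPM. The 8 tested GABA neuron markers summed to 620 to 1326 CPM. Summed markers of the labelled cell type were thus far below those of oligodendrocytes and astrocytes. The lists differ in length and in RNA per gene, so their sums do not measure the share of a cell type. The WT libraries at 6 months stood apart, with correlations of log2 CPM with other libraries of 0.90 to 0.95 against 0.98 within the pair. Every comparison with that group rests on those 2 libraries. Mitochondrial counts took 1.16% to 7.19% of a library.

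Per length of exon, the order of the 10 genes hardly moved between groups. In RPKM (CPM per 1000 bases of exon), Fth1 was highest in every group, with 135 ± 11.1 (SD, n = 2) in WT against 438 ± 5.13 in KO at 6 months, and with 604 ± 25.1 in WT against 272 ± 36.2 in KO at 18 months. Trf came next with means of 37.1 to 124 RPKM, followed by Aco1 with 14.6 to 17.8, Tfrc with 9.46 to 13.1 and Slc11a2 with 7.95 to 8.67. Cp stood above Ireb2 at 6 months in both genotypes and below it at 18 months in both. Ftl1, Heph and Slc40a1 closed the order, and Slc40a1 was lowest everywhere with 0.44 to 0.56 RPKM. Neighbours in the order whose libraries overlapped were Ftl1 and Heph in WT of 6 months and KO of 18 months, and Slc11a2 and Ireb2 in KO at 18 months.

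2 of these levels depend on how reads were assigned to copies. Of the 50-base windows of Trf, 59.4% occur in another gene too. The overlapping same-strand gene Gm20425 shares 2108 of its 3320 exonic bases and has 0 reads in every library. For Ftl1 the share is 50.9%, spread over 15 other genes. Its low count of 11 to 39 reads per library, and the ratio of Fth1 to Ftl1 of 55.3 to 262 in RPKM, are therefore uncertain. The other genes shared at most 1.59% of their windows, the value of Fth1. All ferritin-named copies together held 138 reads against 98731 of Fth1 and Ftl1. Nearly all of the latter are Fth1 reads, and multi-mapping settings are not given, so this says little about Ftl1. No source used here says whether counting used strand, which also leaves the 402 bases that Slc11a2 shares with the opposite-strand Gm5475 (2 to 11 reads) and the 108 bases that Cp shares with Hps3 (109 to 484 reads) uncertain.

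**Figure D1:**
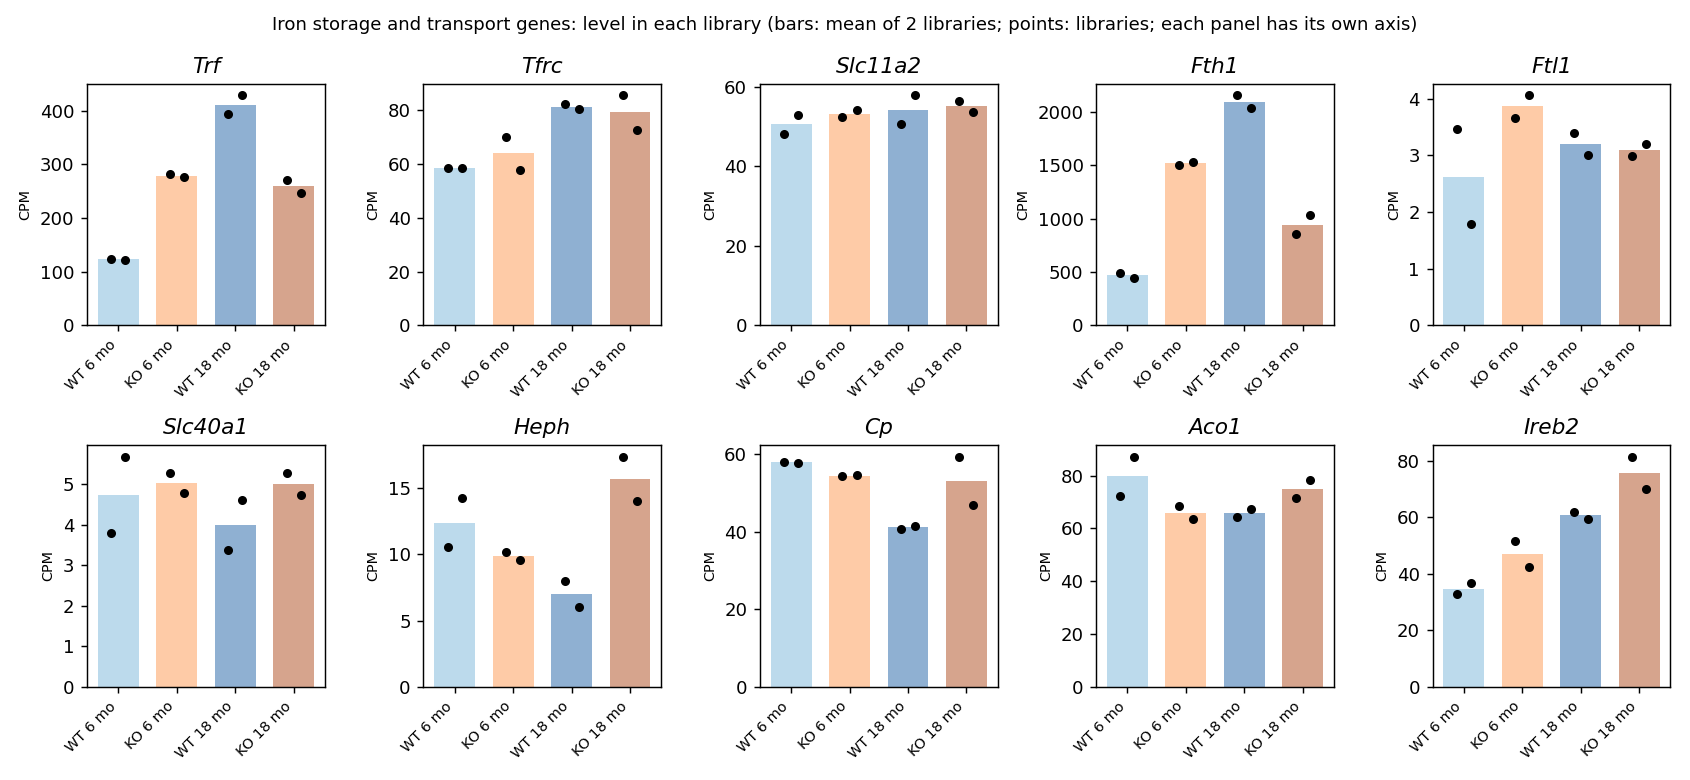
RNA level of each of the 10 iron genes in CPM in each library, 1 panel per gene with its own axis from 0; points are libraries and bars the group means. Trf and Fth1 are lowest in both WT libraries at 6 months and highest in both WT libraries at 18 months, while Slc11a2 stays between 48.1 and 57.9 CPM.

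Trf (chr9:103204001-103230444, minus strand) encodes transferrin, the iron carrier. Its RNA was 123.6 and 122.6 CPM in the WT libraries and 282.2 and 275.9 CPM in the KO libraries at 6 months. At 18 months it was 393.5 and 429.2 CPM in WT and 271.0 and 247.3 CPM in KO. No 2 groups compared at one age or in one genotype overlapped: WT was the lowest group at 6 months and the highest at 18 months. Trf was higher in KO at 6 months by 1.18 on the log2 scale (SE 0.067, edgeR adjusted p = 1.08e-12). At 18 months it was lower in KO, with a log2 fold change of -0.67 (SE 0.060, adjusted p = 6.55e-09). The difference between these effects, the genotype-by-age interaction, was -1.85 (SE 0.090, adjusted p = 4.77e-14). With age Trf rose in WT by 1.74 (SE 0.066, adjusted p = 1.21e-16). In KO the change with age was -0.11 with a 95% interval of -0.23 to 0.02 and did not pass (adjusted p = 0.196).

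The oligodendrocyte markers moved the same way. All 16 were called higher in KO at 6 months (median log2 fold change 1.10), all 16 lower in KO at 18 months (-0.54) and all 16 higher with age in WT (1.56), while in KO 3 were called higher and 6 lower with age (-0.05). Trf lay among them each time: its change was above that of 10 of the 16 in KO against WT at 6 months, of 5 at 18 months, of 12 with age in WT and of 6 with age in KO. Divided by the summed markers, Trf was nearly level, with 8.00 ± 0.064 CPM per 1000 CPM of oligodendrocyte markers in WT against 8.30 ± 0.017 in KO at 6 months, and 9.15 ± 0.58 in WT against 8.38 ± 0.46 in KO at 18 months (SD, n = 2). In sorted bulk RNA, fewer cells of a type and less RNA per cell cannot be told apart.

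Fth1 (chr19:9980598-9985098, plus strand) encodes the ferritin heavy chain, the subunit that oxidises iron as it enters the shell. It had 495.3 and 440.9 CPM in WT and 1506 and 1531 CPM in KO at 6 months. At 18 months it had 2158 and 2035 CPM in WT and 854.0 and 1031 CPM in KO. The groups compared did not overlap in any of the 4 comparisons, and the order of WT and KO at 6 months was turned at 18 months. KO against WT gave a log2 fold change of 1.70 at 6 months (SE 0.071, edgeR adjusted p = 1.05e-14) and -1.15 at 18 months (SE 0.068, adjusted p = 6.51e-12). The interaction of -2.85 (SE 0.099, adjusted p = 3.22e-16) was the largest of the 10 genes. With age Fth1 rose in WT by 2.16 (SE 0.072, adjusted p = 1.61e-17) and fell in KO by 0.69 (SE 0.068, adjusted p = 3.92e-08).

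Fth1 moved further than the oligodendrocyte markers. Its rise in KO at 6 months was above that of 15 of the 16, its rise with age in WT above all 16, and its falls in KO at 18 months and with age in KO were below all 16. The markers themselves ranged from 0.86 to 1.73, from 1.35 to 2.04, from -0.98 to -0.37 and from -0.46 to 0.34 on the log2 scale in these 4 comparisons. Per 1000 CPM of oligodendrocyte markers, Fth1 was 30.4 ± 2.57 CPM in WT against 45.2 ± 1.34 in KO at 6 months, and 46.7 ± 1.84 in WT against 30.5 ± 4.36 in KO at 18 months (SD, n = 2). All libraries of KO at 6 months and WT at 18 months lay at 44.2 to 48.0, and all libraries of the other groups at 27.4 to 33.6. An exact permutation test of 2 libraries against 2 cannot reach the threshold, so this ratio is a description.

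**Figure D2:**
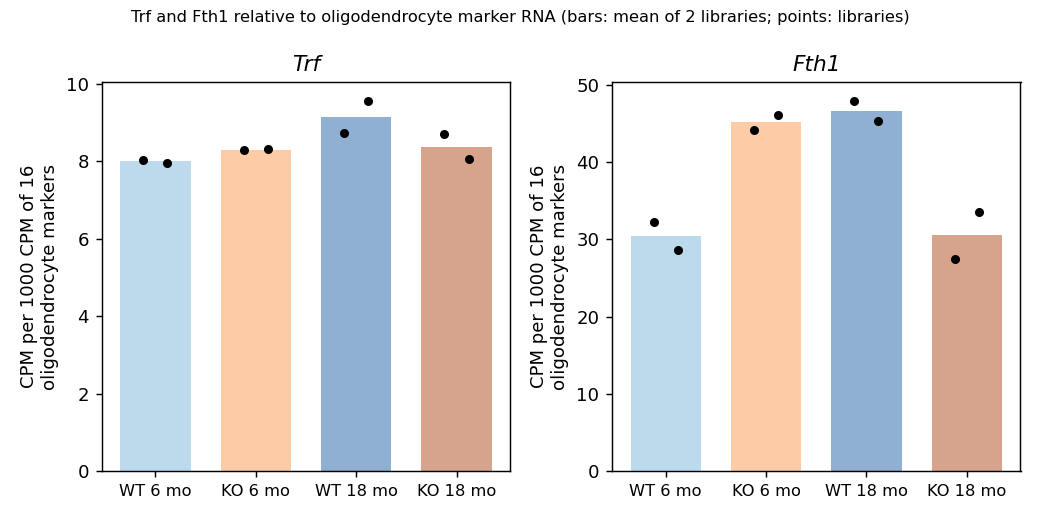
CPM of Trf and Fth1 per 1000 CPM of 16 oligodendrocyte markers, with 1 point per library and bars at the group means. Trf stays between 7.95 and 9.57, whereas Fth1 is at 44.2 to 48.0 in KO at 6 months and WT at 18 months and at 27.4 to 33.6 in the other groups.

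Other measures were also highest in the 2 groups with the high Fth1 ratio. The oligodendrocyte markers themselves summed to 33626 ± 602 CPM in the younger KO and 44937 ± 90.2 in the older WT libraries, against 15393 ± 37.1 in the younger WT and 30916 ± 304 in the older KO libraries. The 12 microglial markers summed to 182 ± 1.82 CPM in the younger KO and 190 ± 8.998 in the older WT libraries, against 140 ± 4.59 in the younger WT and 81.5 ± 1.04 in the older KO libraries. The 6 tested red blood cell markers summed to 114 ± 6.73 and 42.6 ± 5.71 CPM against 21.9 ± 0.21 and 15.95 ± 1.72. The 2 tested choroid plexus and ependyma markers, of 9 listed, summed to 22.9 ± 4.31 and 25.6 ± 0.43 CPM against 14.9 ± 1.76 and 12.4 ± 3.01. The 6 neutrophil markers reached 59.6 ± 1.55 CPM in KO at 6 months and at most 3.66 ± 0.50 CPM in the other groups. Mitochondrial counts took 7.19% and 5.28% of the KO libraries at 6 months and 5.29% and 3.49% of the WT libraries at 18 months, against 1.16% to 2.79% in the other 4. With mitochondrial, rRNA-like and Malat1 counts left out, the log2 fold changes of Fth1 were 1.70, -1.15, 2.16 and -0.69, as with them. That step changes only the scaling of the libraries. A link between the mitochondrial share and Fth1 was not tested. The part of the other cells in the Fth1 result was not tested.

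Ftl1 (chr7:45457944-45459884, minus strand) encodes the ferritin light chain, which helps the shell to form its iron core. It had 3.46 and 1.79 CPM in WT and 3.66 and 4.06 CPM in KO at 6 months, and 3.39 and 3.00 CPM in WT and 2.98 and 3.19 CPM in KO at 18 months. The 2 WT libraries at 6 months spanned most of the range. No comparison passed: KO against WT was 0.56 at 6 months (95% interval -0.15 to 1.26, edgeR adjusted p = 0.209) and -0.04 at 18 months (-0.64 to 0.56, adjusted p = 0.939). The intervals are wide at this depth and do not show that Ftl1 stayed level. Without the first WT library at 6 months the difference at that age was 1.11 and passed (adjusted p = 0.0465).

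Tfrc (chr16:32608920-32632794, plus strand), the receptor for iron-loaded transferrin, followed age. It had 58.6 and 58.5 CPM in WT and 70.2 and 57.7 CPM in KO at 6 months, and 82.3 and 80.4 CPM in WT and 85.6 and 72.7 CPM in KO at 18 months. The libraries of both genotypes overlapped at each age, while those at 18 months lay above those at 6 months within each genotype. Tfrc rose with age in WT by 0.47 (SE 0.097, edgeR adjusted p = 0.000187) and in KO by 0.31 (SE 0.090, adjusted p = 0.0106). The rise in KO did not pass without the second KO library at 6 months (0.18, adjusted p = 0.27) or the first at 18 months (0.19, adjusted p = 0.217). KO against WT gave 0.13 at 6 months (95% interval -0.08 to 0.34, adjusted p = 0.332) and -0.04 at 18 months (-0.21 to 0.14, adjusted p = 0.794). The interaction was -0.16 (SE 0.13, adjusted p = 0.354).

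Slc11a2 (chr15:100387898-100425072, minus strand), the divalent metal transporter that releases iron from the endosome, had the narrowest range of the 10 relative to its level. Its libraries held 48.1 and 53.0 CPM in WT and 52.3 and 54.2 in KO at 6 months, and 50.7 and 57.9 in WT and 56.5 and 53.7 in KO at 18 months. Every pair of groups compared overlapped. None of the comparisons passed, and their 95% intervals ran from at lowest -0.16 to at highest 0.31 over the 4 pairwise comparisons. For the genotype difference at 18 months the interval was -0.16 to 0.19 (log2 fold change 0.01, edgeR adjusted p = 0.931).

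Slc40a1 (chr1:45908068-45926523, minus strand), the only known cellular iron exporter, was sparsely counted. It had 23 to 69 reads in a library. Its level was 3.79 and 5.69 CPM in WT and 5.27 and 4.78 CPM in KO at 6 months, and 3.39 and 4.62 CPM in WT and 5.27 and 4.74 CPM in KO at 18 months. The groups overlapped except WT and KO at 18 months, where KO was higher by 0.29 (95% interval -0.22 to 0.79, edgeR adjusted p = 0.397). At 6 months the difference was 0.08 with an interval of -0.49 to 0.66 (adjusted p = 0.845). With age the change was -0.21 in WT (adjusted p = 0.544) and 0.00 in KO (-0.51 to 0.50, adjusted p = 0.995).

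Heph (chrX:96455359-96574485, plus strand), a membrane-bound copper ferroxidase that works beside ferroportin, moved opposite to Fth1 in the 3 pairwise comparisons in which it passed. It had 10.5 and 14.3 CPM in WT and 10.2 and 9.55 CPM in KO at 6 months, and 8.02 and 6.00 CPM in WT and 17.4 and 14.1 CPM in KO at 18 months. The 2 WT libraries at 18 months were the lowest of the 8. Heph was higher in KO at 18 months by 1.20 (SE 0.18, edgeR adjusted p = 1.19e-05), while at 6 months the difference was -0.33 (95% interval -0.75 to 0.08, adjusted p = 0.204). The interaction was 1.54 (SE 0.27, adjusted p = 6.28e-05). With age Heph fell in WT by 0.86 (SE 0.21, adjusted p = 0.00102) and rose in KO by 0.68 (SE 0.17, adjusted p = 0.00451). The rise in KO did not pass without the second KO library at 6 months (0.63, adjusted p = 0.0546) or the first at 18 months (0.51, adjusted p = 0.0901).

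Cp (chr3:19957054-20009145, plus strand), the ferroxidase that occurs both secreted and anchored to the astrocyte surface, took the directions of Heph, with smaller sizes, in KO at 18 months and with age in WT. It had 57.9 and 57.7 CPM in WT and 54.3 and 54.6 CPM in KO at 6 months, and 40.6 and 41.5 CPM in WT and 59.3 and 46.8 CPM in KO at 18 months. WT at 18 months was again the lowest group, and the 2 KO libraries at that age lay far apart. Cp was higher in KO at 18 months by 0.37 (SE 0.097, edgeR adjusted p = 0.00446) and fell with age in WT by 0.49 (SE 0.10, adjusted p = 0.000275). The interaction was 0.46 (SE 0.14, adjusted p = 0.0121). Without the first KO library at 18 months the difference at that age was 0.19 (adjusted p = 0.245) and the interaction 0.27 (adjusted p = 0.152), and neither passed. The interaction also missed the threshold in DESeq2 (0.44, adjusted p = 0.0507). KO against WT at 6 months gave -0.09 (95% interval -0.30 to 0.13, adjusted p = 0.538), and age in KO -0.03 (-0.23 to 0.16, adjusted p = 0.829).

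Aco1 (chr4:40143081-40198338, plus strand) encodes iron regulatory protein 1, which is a cytosolic aconitase when it holds an iron-sulfur cluster. It had 72.4 and 87.2 CPM in WT and 68.4 and 63.5 CPM in KO at 6 months, and 64.3 and 67.4 CPM in WT and 71.5 and 78.4 CPM in KO at 18 months. WT was above KO at 6 months and below it at 18 months, with no overlap at either age. The difference was -0.28 at 6 months (SE 0.091, edgeR adjusted p = 0.0183) and 0.18 at 18 months (SE 0.084, adjusted p = 0.0992; 0.22 and 0.0396 with a minimum count of 50), and the interaction was 0.46 (SE 0.12, adjusted p = 0.00445). With age Aco1 fell in WT by 0.28 (SE 0.089, adjusted p = 0.0107). In KO the change was 0.18 (SE 0.085, adjusted p = 0.106). The second WT library at 6 months carried much of this: without it the difference at 6 months was -0.13 (adjusted p = 0.361), the fall in WT -0.12 (adjusted p = 0.316) and the interaction 0.31 (adjusted p = 0.0618). The difference at 6 months also did not pass without the second KO library at that age (-0.20, adjusted p = 0.198) or in DESeq2 (-0.27, adjusted p = 0.0588). The fall in WT did not pass without the first WT library at 18 months (-0.23, adjusted p = 0.0845) or in DESeq2 (-0.25, adjusted p = 0.0568).

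The astrocyte markers went the same way as Heph, Cp and Aco1 in the comparisons in which these genes passed. All 15 were called lower in KO at 6 months (median log2 fold change -0.82), all 15 higher in KO at 18 months (1.04), all 15 lower with age in WT (-1.64) and 10 of 15 higher with age in KO (0.27). At 18 months the genotype difference of Heph was above that of 11 of the 15, and those of Cp and Aco1 were below all 15. With age in WT, Heph, Cp and Aco1 fell less than any of the 15. In KO against WT at 6 months all of them also lay above all 15, and with age in KO Heph did. Heph also lay outside the 16 oligodendrocyte markers in each of the pairwise comparisons. Those markers ranged from -0.98 to -0.37 between genotypes at 18 months and from 1.35 to 2.04 with age in WT. Per 1000 CPM of astrocyte markers, Cp was 3.31 ± 0.027 CPM in WT against 5.18 ± 0.010 in KO at 6 months, and 7.01 ± 0.066 against 4.27 ± 0.72 at 18 months (SD, n = 2), so its level did not stay in proportion to them. The same ratio of Heph was 0.71 ± 0.15, 0.94 ± 0.048, 1.20 ± 0.25 and 1.27 ± 0.19 in that order. Other marker lists shared part of these directions. Their medians follow for KO at 6 and 18 months, then with age in WT and in KO. They were 0.26, 0.96, -1.03 and -0.38 for pericyte and smooth muscle markers. Fibroblast and meninges markers had -0.76, 0.36, -2.16 and -0.65. Endothelial markers had -0.27, 0.17, -0.70 and -0.13. The part of astrocyte RNA, or of RNA from these other cells, in these results was not tested.

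Ireb2 (chr9:54863789-54912530, plus strand) encodes iron regulatory protein 2, which is degraded when iron is plentiful. It had 32.8 and 36.9 CPM in WT and 51.5 and 42.5 CPM in KO at 6 months, and 62.1 and 59.4 CPM in WT and 81.6 and 70.0 CPM in KO at 18 months. None of the groups overlapped: both KO libraries were above both WT libraries at each age, and all libraries at 18 months were above all libraries at 6 months. Ireb2 rose with age in WT by 0.80 (SE 0.11, edgeR adjusted p = 1.01e-06) and in KO by 0.69 (SE 0.096, adjusted p = 5.8e-06). It was higher in KO by 0.43 at 6 months (SE 0.11, adjusted p = 0.00387) and by 0.32 at 18 months (SE 0.091, adjusted p = 0.00786). The interaction was -0.11 (95% interval -0.41 to 0.19, adjusted p = 0.595). The genotype difference at 6 months did not pass without the first WT library (0.36, adjusted p = 0.0522) or the first KO library (0.29, adjusted p = 0.111). At 18 months it did not pass without the second WT library (0.31, adjusted p = 0.0674) or the first KO library (0.21, adjusted p = 0.18).

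**Figure D3:**
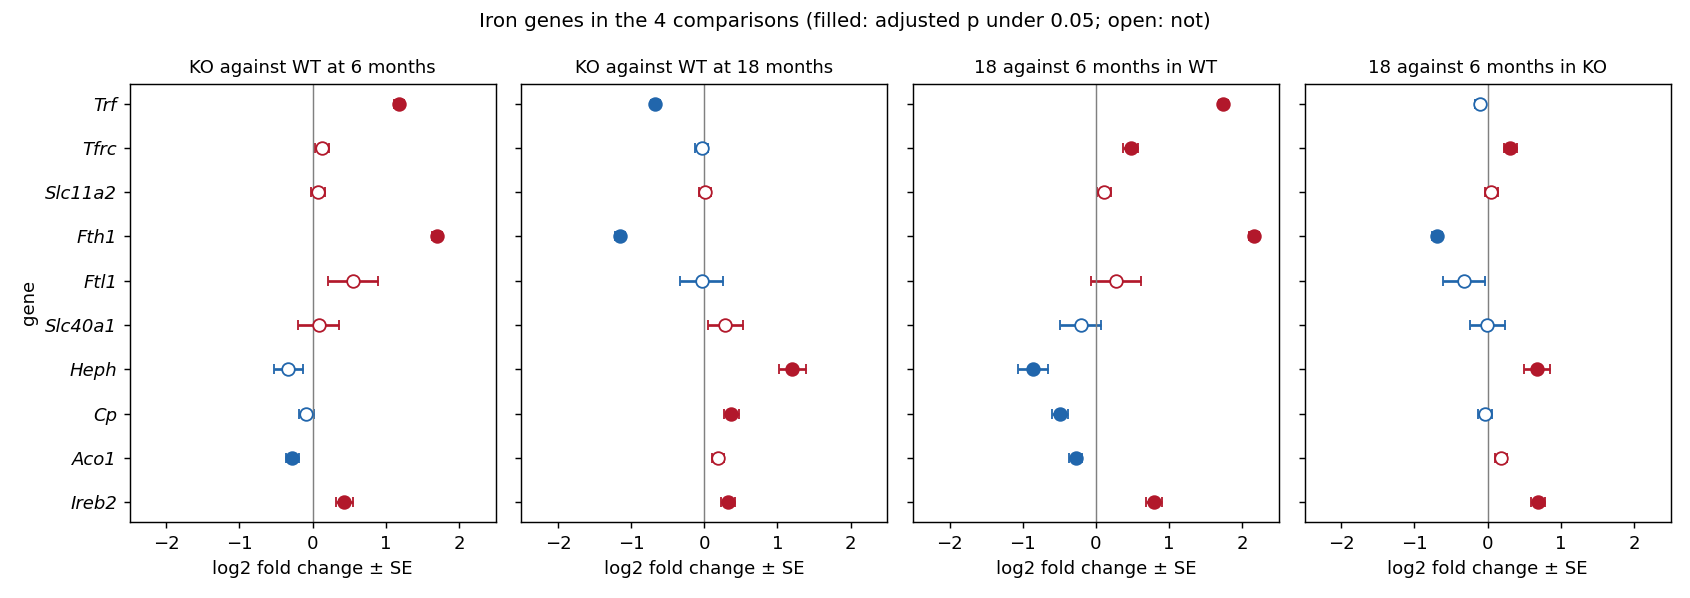
Log2 fold change of each of the 10 genes in the 4 pairwise comparisons, with bars of 1 standard error from the edgeR fit; filled points passed an adjusted p of 0.05. Fth1 and Trf lie on opposite sides of 0 at the 2 ages (1.70 and -1.15 for Fth1), Heph lies at -0.33 and 1.20, and Ireb2 is above 0 in all 4.

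Counted over the 10 genes, KO against WT at 6 months gave 3 higher (Trf, Fth1 and Ireb2; 19.2% of all genes were called higher) and 1 lower (Aco1; 19.6% of all genes). At 18 months 3 were higher (Heph, Cp and Ireb2; 14.7%) and 2 lower (Trf and Fth1; 17.4%). With age in WT 4 were higher (Trf, Tfrc, Fth1 and Ireb2; 28.2%) and 3 lower (Heph, Cp and Aco1; 30.8%). With age in KO 3 were higher (Tfrc, Heph and Ireb2; 13.8%) and 1 lower (Fth1; 17.9%). The interaction was called higher for 3 (Heph, Cp and Aco1; 18.4%) and lower for 2 (Trf and Fth1; 20.7%). Since the genes were selected with these results known, nothing is read from the counts. Their median log2 fold changes were 0.11, 0.10, 0.19, 0.02 and -0.09 in these 5 comparisons, and those of all genes lay between -0.04 and 0.01. The median absolute log2 fold change of the 10 genes was close to that of all genes: 0.30 against 0.38, 0.31 against 0.30, 0.48 against 0.60 and 0.25 against 0.28 in the 4 pairwise comparisons. Comparisons at one age and in one genotype share a group of libraries, so their values are given side by side and were not correlated.

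**Figure D4:**
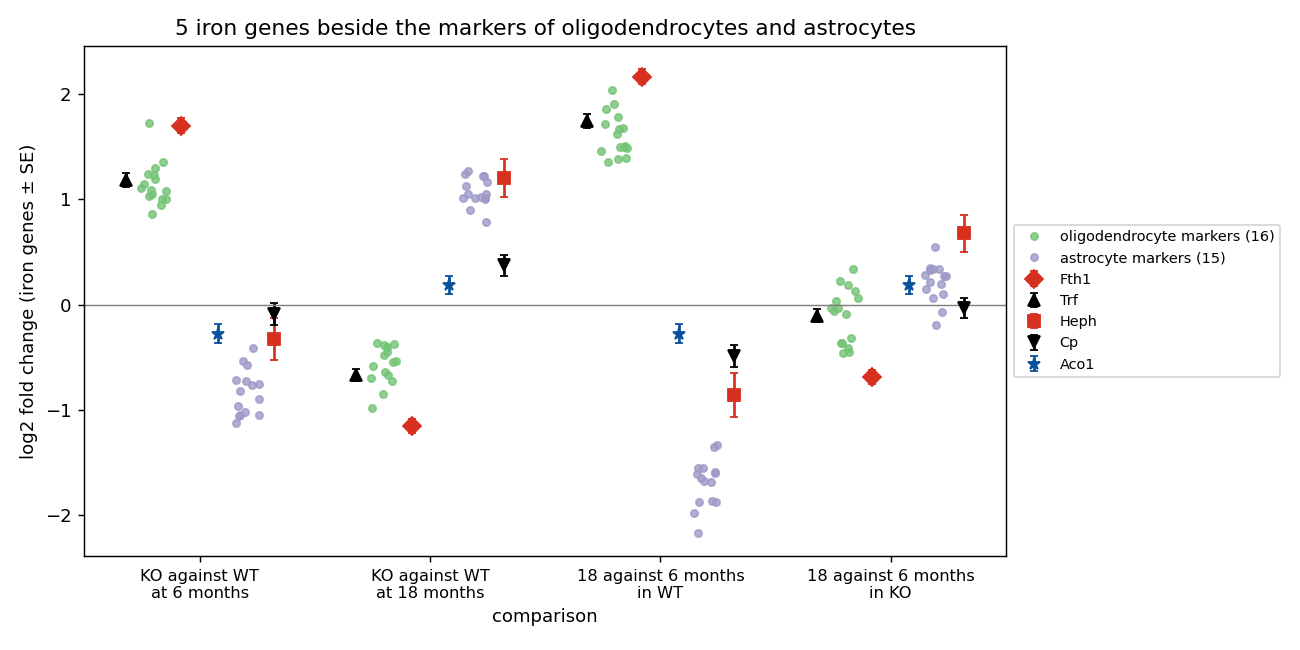
Log2 fold changes of Trf, Fth1, Heph, Cp and Aco1, with bars of 1 standard error, beside those of 16 oligodendrocyte and 15 astrocyte markers in the 4 pairwise comparisons, 1 point per gene. Fth1 lies outside the oligodendrocyte points in 3 comparisons (2.16 against at most 2.04 with age in WT). Heph lies inside the astrocyte points only in KO against WT at 18 months (1.20). Elsewhere Heph lies above them: -0.33 against at most -0.41 in KO at 6 months, -0.86 against at most -1.33 with age in WT. With age in KO it is at 0.68 against at most 0.55.

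Genes with the most similar pattern over the 8 libraries were found by Pearson's r of log2 CPM, as a description over libraries that share their groups, depth and marker content. Those most like Fth1 were Elovl1 (r = 0.9988), which elongates very long fatty acids, Micall1 (0.9987) and Coro1c (0.9967). Those most like Trf were Synm (0.9982), Dnajc6 (0.9971) and Arsg (0.9963). Ireb2 was most like Hbp1 (0.995), Pik3ca (0.9907) and Pds5a (0.9906), and Tfrc most like Zfp24 (0.985), Uso1 (0.9817) and Vamp4 (0.9807). For Heph the closest was Tmem29 (0.9775), for Cp Fam168b (0.9836) and for Aco1 Trim39 (0.9829). For the sparsely counted Ftl1 and Slc40a1 the highest values were lower, with 0.9355 for Mxd1 and 0.9108 for Tecpr2. No gene was the closest to 2 of the 10.

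Of 102 other iron genes in 9 lists, 92 were tested. KO against WT called 19 higher (20.7%, beside 19.2% of all genes) and 21 lower (22.8% beside 19.6%) at 6 months. At 18 months it called 9 higher (9.78% beside 14.7%) and 22 lower (23.9% beside 17.4%). Age called 28 higher (30.4% beside 28.2%) and 29 lower (31.5% beside 30.8%) in WT, and 10 higher (10.9% beside 13.8%) and 19 lower (20.7% beside 17.9%) in KO. The medians of the 92 were 0.04, -0.08, -0.03 and -0.05 on the log2 scale. The counts of the single lists are to be read against the same shares of all genes. The list nearest to ferritin, 7 tested genes of ferritin turnover and iron chaperones, had 3 called higher and 1 lower in KO at 6 months, 0 higher and 3 lower in KO at 18 months, 6 higher and 1 lower with age in WT, and 2 higher and 2 lower with age in KO, with medians of 0.30, -0.22, 0.40 and 0.09. Fbxl5, which targets Ireb2 protein for degradation, rose with age in WT from 135 ± 5.33 to 287 ± 16.1 CPM (log2 fold change 1.09, SE 0.079, adjusted p in edgeR 1.99e-11), in the same libraries in which Ireb2 RNA rose. Both were also higher in KO at 6 months and with age in KO (Fbxl5 0.59 and 0.27). Between genotypes at 18 months they parted: Fbxl5 was lower in KO (-0.22, SE 0.073, edgeR adjusted p = 0.0201), where Ireb2 was higher. The iron chaperone gene Pcbp3 had 45.2 ± 1.23 CPM in WT against 13.01 ± 2.20 in KO at 6 months (-1.80, SE 0.15, adjusted p = 3.96e-10). At 18 months Pcbp3 had 14.0 ± 0.96 CPM in WT against 11.8 ± 2.16 in KO (-0.25, SE 0.15, adjusted p = 0.231), so it was high only in the WT libraries of 6 months, the pair that stood apart.

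Among 13 tested genes of iron uptake and reduction, 2 were called higher and 6 lower in KO at 6 months, 2 higher and 3 lower in KO at 18 months, 2 higher and 7 lower with age in WT, and 1 higher and 5 lower with age in KO. Their medians were -0.53, 0.09, -1.03 and -0.36. Slc39a14, a carrier of iron not bound to transferrin, was at 66.1 ± 1.58 CPM in WT against 38.0 ± 5.91 in KO at 6 months and at 31.9 ± 4.86 in WT and 50.8 ± 1.11 in KO at 18 months. Its genotype difference was -0.80 (SE 0.11, edgeR adjusted p = 2.35e-06) and 0.65 (SE 0.11, adjusted p = 3.16e-05), the directions of Aco1. Ltf, the iron-binding lactoferrin of neutrophil granules, had 0 reads in the WT libraries and 130 in the KO libraries at 6 months, and was thus higher by at least 30.98-fold if 3 reads are allowed for the empty group. Ltf and Lcn2 were the 2 uptake genes called higher in KO at 6 months, and both are among the neutrophil markers.

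Of 9 tested genes of the hepcidin axis and export, 4 were higher and 3 lower in KO at 6 months, 0 higher and 4 lower in KO at 18 months, 4 and 4 with age in WT, and 2 and 2 with age in KO. Shares of all genes called higher and lower were 19.2% and 19.6%, 14.7% and 17.4%, 28.2% and 30.8%, and 13.8% and 17.9% in that order. The same shares stand beside the heme lists that follow. Hamp, which encodes hepcidin, had no reads. Of 12 tested genes of heme import, export and breakdown, 2 and 2 were called at each age between genotypes, 3 higher and 3 lower with age in WT, and 0 higher and 5 lower with age in KO. The heme carrier Slc48a1 was at 246 ± 11.1 CPM in WT against 439 ± 23.2 in KO at 6 months, and at 520 ± 1.50 in WT and 361 ± 24.7 in KO at 18 months. Of 9 tested genes of heme synthesis, 3 were higher and 2 lower in KO at 6 months, 0 and 3 at 18 months, 2 and 3 with age in WT and 1 and 1 with age in KO. Fech, which puts iron into heme, was at 66.1 ± 7.09 CPM in WT against 109 ± 6.27 in KO at 6 months, and at 144 ± 0.13 in WT against 113 ± 2.54 in KO at 18 months. Fech and Slc48a1 thus had their lowest group in WT at 6 months and their highest in WT at 18 months. So did Fth1, Trf and the summed oligodendrocyte markers, and these heme genes were named by small p-values in the same comparisons. Lrp1, a receptor for heme-hemopexin named by the same rule from the heme list, ran the other way, from 2224 ± 5.30 CPM in WT and 1184 ± 44.9 in KO of 6 months to 857 ± 4.47 and 942 ± 32.0 CPM at 18 months.

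The 19 tested genes of iron-sulfur cluster assembly were called as follows: 0 higher and 2 lower in KO at 6 months, 1 and 3 at 18 months, 3 and 3 with age in WT and 0 and 1 with age in KO. Of 7 tested genes of mitochondrial iron transport, 2 were higher and 1 lower in KO at 6 months, 1 and 0 at 18 months, 2 and 2 with age in WT and 0 and 1 with age in KO. Of 6 other transcripts described to carry an iron-responsive element, 2 were higher and 1 lower, 1 and 0, 1 and 2, and 2 and 2 in the same order. Of 11 tested genes of lipid peroxidation and ferroptosis, an iron-dependent form of cell death, 2 were higher and 3 lower in KO at 6 months. Counts were 2 and 4 at 18 months, 5 and 4 with age in WT and 2 and 1 with age in KO. Beside all these lists, the shares of all genes were 19.2% and 19.6%, 14.7% and 17.4%, 28.2% and 30.8%, and 13.8% and 17.9%. Slc7a11, the cystine carrier, was at 265 ± 8.73 CPM in WT against 159 ± 8.69 in KO at 6 months and at 80.6 ± 3.25 in WT and 190 ± 16.8 in KO at 18 months. Gpx4, which reduces lipid peroxides, was at 32.3 ± 0.80 CPM in WT and 19.1 ± 2.68 in KO at 18 months (-0.76, SE 0.12, edgeR adjusted p = 1.55e-05). At 6 months Gpx4 had 24.2 ± 0.93 CPM in WT and 28.4 ± 2.16 in KO, and the difference did not pass (0.23, SE 0.13, adjusted p = 0.166).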

How the data were processed

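Each library was deposited as 1 file of unnormalized read counts by gene. Per the submitters' processing notes, CASAVA 1.8.2 and STAR 2.5.2a were used, as was featureCounts 1.5.0-p1, with the build mm10. The sources used here do not give strand or multi-mapping settings. Symbols, exon lengths and UTRs were taken from GENCODE vM21 on mm10, which gave a name to 99.83% of IDs; the rest took at most 0.00189% of any library.

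Groups were compared in R 4.3.3 by edgeR 4.0.16 (quasi-likelihood F test, TMM scaling, minimum count 10), with 4 groups in 1 model and Benjamini-Hochberg adjustment over 18205 genes at 0.05. CPM are TMM-scaled. The model was tested on simulated data. Alternatives were DESeq2 1.42.0, other scalings and filters, a replicate block and libraries left out. The 10 genes were described in every comparison; of each other iron list, up to 2 genes with the smallest p per comparison were candidates to name; the 3 most similar genes needed a mean of 10 CPM. Members and lists were chosen with earlier results of these data known. Replicates of a group differed by more than sampling noise (chi-square per gene 2.59 to 5.08). Protein sequences were not analysed here, and a few genes that the rules would name are not reported here. No molecular identifiers are described, so the floor for 0 reads covers counting error alone.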

Additional observations from a re-analysis of the deposited data

Results flagged for a closer look

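For 33 of 43 genes tested (the 10 iron genes, 32 other iron genes chosen by the naming rule and Dnmt1), the difference between KO and WT at 18 months departed from that at 6 months by a test of the interaction term in edgeR at an adjusted p of 0.05. These genes were chosen by small p-values in comparisons of which the interaction is built, or with results known, so the selection raised this count. Of all 92 other iron genes tested, 18 passed upwards (19.6%, beside 18.4% of all genes) and 25 downwards (27.2% beside 20.7%). Values are the log2 fold change at 18 months minus that at 6 months. Of the 10 iron genes, Fth1 had -2.85, Trf -1.85, Heph 1.54, Cp 0.46 and Aco1 0.46. Dnmt1 had 0.30 (adjusted p = 0.0202). Of the 32 other iron genes so chosen, 27 passed. Those of uptake were Ltf with -8.84, Lcn2 with -4.60, Snx3 with -0.73, Slc39a14 with 1.45 and Steap3 with 1.69. The value of Ltf is a fitted one against a group with 0 reads and is no bound. Those of ferritin turnover were Pcbp4 with -1.14, Fbxl5 with -0.81, Pcbp1 with -0.58 and Pcbp3 with 1.55. Those of the hepcidin axis were Bmp2 with -2.25, App with -1.39 and Neo1 with -0.71. Heme handling gave Slc48a1 with -1.36, Hmox2 with -1.34 and Lrp1 with 1.05. Heme synthesis gave Alas2 with -1.28, Fech with -1.07 and Cpox with -0.97. Iron-sulfur assembly gave Nubp2 with -0.75 and Lyrm4 with 1.25. Mitochondrial carriers gave Abcb10 with -0.57 and Sfxn1 with 1.34. Of the transcripts described to carry an iron-responsive element, Cdc42bpa had -0.88 and Cdc14a 0.48. Of the ferroptosis list, Gpx4 had -0.99, Slc3a2 0.88 and Slc7a11 1.98. The oligodendrocyte markers had a median of -1.72 and the astrocyte markers of 1.97 in the same test. The neutrophil markers, which include Ltf and Lcn2, had a median of -6.01. The red blood cell markers, which include Alas2, had a median of -4.53. The part of these cell types in the values above was not tested.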

How the results depend on the processing

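For the 50 results of the 10 genes (5 comparisons each), 710 alternatives gave 667 with the same direction and side of the threshold, 18 weaker, 3 now passing and 22 reversed, all 22 among results that had not passed. The calls of Fth1 and Trf held under every alternative run. No alternative moved the median log2 fold change of all genes by more than 0.0484. Single calls lost or gained are given beside each gene above, or below for the replicate block.

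DESeq2 called 0 of the 10 genes lower in KO at 6 months, beside 2582 of all 18205 genes. Over all genes it called 1706 higher in KO at 18 months and 1551 higher with age in KO. Leaving out 1 library in turn gave 0 to 1 of the 10 lower in KO at 6 months, 1 to 3 higher in KO at 18 months and 1 to 3 higher with age in KO. Over all genes it gave 1931 to 3407 lower in KO at 18 months, and 1252 to 2791 higher and 2003 to 3495 lower with age in KO; the lowest counts came without the second WT library at 18 months and without the second KO library at 6 months. Reversed values were 0.0051 for Tfrc in KO against WT at 18 months with a minimum count of 50, and, with age in KO, 0.0070 for Slc40a1 with RLE size factors, 0.0060 with DESeq2 and 0.032 with no filter, and 0.0015 for Cp with no filter. With 1 library left out, ranges that crossed 0 were -0.17 to 0.41 for Slc40a1 and -0.017 to 0.29 for Tfrc in KO against WT at 6 months. At 18 months they were -0.16 to 0.076 for Tfrc, -0.061 to 0.14 for Slc11a2 and -0.11 to 0.046 for Ftl1. With age they were -0.12 to 0.83 for Ftl1 and -0.48 to 0.13 for Slc40a1 in WT, and -0.077 to 0.074 for Slc40a1 and -0.21 to 0.13 for Cp in KO. For the interaction they were -0.13 to 0.48 for Slc40a1, -0.25 to 0.031 for Ireb2 and -0.16 to 0.044 for Slc11a2. The cause was not tested.

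Where a marker list was summarised by its median log2 fold change and not by its summed CPM, the sign turned for endothelial markers with age in KO (-0.13), choroid plexus markers in KO at 6 months (-0.55), GABA neuron markers in KO at 18 months (-0.58) and with age in KO (-1.77) and excitatory neuron markers in KO at 18 months (-0.97). With Watson-Crick pairs alone, the hairpin search matched 0.0581% of 5′ UTRs and 0.0902% of 3′ UTRs. Deviations of same-numbered libraries from their group means were nearly uncorrelated over the tested genes (r from -5.24e-06 to 0.0758). This correlation cannot show whether the numbers pair libraries for a part of the genes. A replicate block gave 3682 genes higher and 3739 lower in KO at 6 months and added 1 call among the 10 genes, Aco1 in KO at 18 months (0.19, adjusted p = 0.0473). Without the WT libraries at 6 months, the 10 genes had 3 higher and 2 lower in KO at 18 months and 3 higher and 1 lower with age in KO, as with them. The comparisons that use that group could not be made without it. Ftl1 and Slc40a1 are limited by depth.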
